A study of Mus musculus with 8 samples.

Results

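The dystrophin-associated complex of skeletal muscle was examined through 8 of its genes: *Dmd* (dystrophin), *Utrn* (utrophin), *Dag1* (dystroglycan), *Sgca*, *Sgcb*, *Sgcd* and *Sgce* (α-, β-, δ- and ε-sarcoglycan) and *Sspn* (sarcospan). They were taken by gene symbol from a table of 55401 genes, and all 8 were among the 13677 genes that averaged 10 or more normalized counts and were tested. The samples were 4 tibialis anterior (TA) muscle libraries of *mdx5cv* and 4 of wild-type (WT) mice, all at 6 mo of age. Both groups were labelled as C57/Bl6 in strain, neither had any other treatment or allele named, and the sex was not given in the labels. *mdx5cv* mice carry a mutation in exon 10 of *Dmd* in every cell of the body and are a model of Duchenne muscular dystrophy in which regeneration of muscle goes on throughout life. RNA was taken from whole muscle, so each value is a sum over fibers and all other cells of the TA.

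Dystrophin is a long rod-shaped protein that ties the cortical actin of the muscle fiber to β-dystroglycan in the sarcolemma, and α-dystroglycan, made from the same *Dag1* transcript, binds laminin outside the fiber. The sarcoglycans form a complex of 4 transmembrane proteins beside dystroglycan, in which β- and δ-sarcoglycan form the core, and sarcospan is a small tetraspanin-like protein held with them. Utrophin is the autosomal paralog of dystrophin. It is found at the neuromuscular junction of healthy adult fibers and along the whole sarcolemma of regenerating and dystrophin-deficient fibers. Without dystrophin the proteins of the complex are largely lost from the sarcolemma, and the transcript measurements below do not read protein.

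The exon that carries the *mdx5cv* lesion is shown because it is the sequence by which the groups differ. It is exon 10 of 79 in the transcript *Dmd-203* (GRCm38, chrX:83664048-83664236, plus strand, 189 bases). A point mutation within it creates a new splice site in *mdx5cv*. The run below is the reference genome, that is, the form without the mutation, and gene-level counts take reads from either form alike.
Dmd exon 10: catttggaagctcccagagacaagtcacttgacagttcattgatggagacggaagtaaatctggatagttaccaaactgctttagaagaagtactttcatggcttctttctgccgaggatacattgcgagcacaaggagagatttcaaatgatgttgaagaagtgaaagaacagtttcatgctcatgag

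Promoters of both genes that fell, *Dmd* and *Sgcd*, and of *Utrn* are shown beside them, from 250 bases before to 50 bases after a RefSeq transcript start (GRCm38.p6). Capitals mark matches to the E box (CANNTG, bound by the myogenic factors of the MyoD family), and in *Dmd* also the match to the CArG box, the site of serum response factor. Matches were sought on both strands, and 2 of the *Utrn* E boxes overlapped each other.
Dmd muscle start, chrX:82948620-82948919, plus strand: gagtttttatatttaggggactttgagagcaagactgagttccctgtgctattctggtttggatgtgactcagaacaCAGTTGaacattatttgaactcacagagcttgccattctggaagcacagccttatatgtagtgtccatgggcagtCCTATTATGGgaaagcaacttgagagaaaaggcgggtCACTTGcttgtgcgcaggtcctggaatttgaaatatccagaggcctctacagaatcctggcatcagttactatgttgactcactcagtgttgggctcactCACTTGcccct
Sgcd, chr11:47379276-47379575, minus strand: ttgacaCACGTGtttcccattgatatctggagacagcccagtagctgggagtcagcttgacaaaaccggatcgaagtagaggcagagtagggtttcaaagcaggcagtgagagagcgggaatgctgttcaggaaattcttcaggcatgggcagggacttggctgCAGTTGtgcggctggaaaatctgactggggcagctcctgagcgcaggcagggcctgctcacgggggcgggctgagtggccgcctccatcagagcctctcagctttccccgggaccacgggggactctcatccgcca
Utrn, chr10:12861686-12861985, minus strand: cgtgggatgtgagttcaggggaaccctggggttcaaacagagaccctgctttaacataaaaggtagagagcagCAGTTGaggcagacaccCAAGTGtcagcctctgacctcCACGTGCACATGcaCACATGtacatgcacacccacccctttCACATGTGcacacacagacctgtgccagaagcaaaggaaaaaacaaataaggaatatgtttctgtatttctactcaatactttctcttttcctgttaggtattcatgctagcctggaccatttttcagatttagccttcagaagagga

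The *Dmd* window held 3 E boxes and 1 CArG box, which began at base -98 from the start. The *Sgcd* window held 2 E boxes and the *Utrn* window 7. At least 1 E box stood in 72.3% of 32851 mouse promoters of the same length and a CArG box in 1.63%. The N box (TTCCGG), bound by GABP at synaptic genes, stood in 14.9% of promoters and in none of the member windows. The *Utrn* and *Sgcd* windows lie at starts inside the annotated genes, so the promoters at the outer 5′ ends of these genes were not searched. *Sgca* had 2 E boxes, both *Dag1* windows and the second *Sspn* window had 1 each, and the *Sgcb* window, the first *Sspn* window and a second *Dmd* start near the 3′ end of the gene had none. These are matches of letters and not measured binding. No window for *Sgce* was among the sequences used.

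The depth was similar across libraries. Between 13175524 and 14921057 reads per muscle were recovered from the normalized counts, and all values were whole reads within a tolerance of 0.001. The size factors by which the authors had divided the reads ranged from 0.873 to 0.944 in WT and from 1.06 to 1.25 in *mdx5cv*, without overlap. Scaling the libraries to equal totals in place of these factors shifted the tested genes as a whole, from a median log2 fold change of 0.0035 to one of 0.36, and the share of called genes that were higher in *mdx5cv* from 51.0% to 86.9%. Each direction below was therefore also read under equal totals. The TA label was checked against fast fiber transcripts, of which *Myh4*, the fastest myosin heavy chain, had 447053 ± 86136 normalized counts in WT and 425780 ± 85226 in *mdx5cv* (SD, n = 4, as for all values with ± below). Samples are separate libraries by their titles, but whether each came from its own mouse is not stated, so p-values measure the spread between these samples.

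*Dmd* and *Sgcd* fell in *mdx5cv* muscle and no gene of the complex rose past the threshold, an adjusted p under 0.05 by limma with Benjamini-Hochberg adjustment over all genes tested. Of the 8 genes, 2 were called lower, 0 higher and 6 were not called. Over all genes tested, 40.9% were called, 20.9% higher and 20.1% lower, so the number of calls in the complex was not above the background. None of the 8 also reached an absolute log2 fold change of 1, the fold threshold of the study, where 13.6% of all genes did. The 2 groups did not overlap for 3 of the 8, *Dmd*, *Utrn* and *Sgcd*, against 40.1% of all genes tested. Their median log2 fold change was 0.10, against 0.0035 for the whole tested table. At an unadjusted p under 0.05 there were 4 genes, *Dmd*, *Sgcd*, *Utrn* and *Dag1*. The tools edgeR and DESeq2, run on the recovered reads, also called 2 lower and 0 higher. Under equal totals 2 were called lower and 4 higher, the latter being *Utrn*, *Dag1*, *Sgcb* and *Sspn*.

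**Figure D1:**
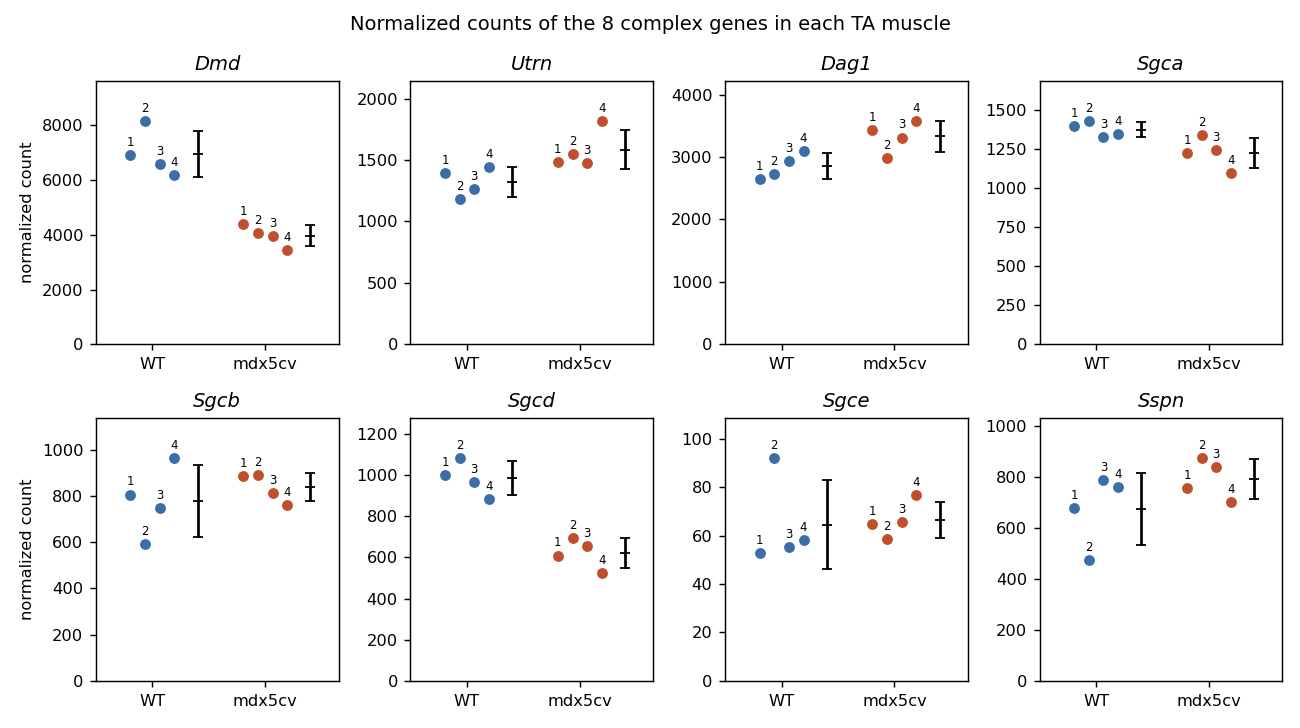
Normalized counts (y axis, from 0) of the 8 genes in each TA muscle, with WT in blue, mdx5cv in red and replicate numbers above the points; the black marks are the mean ± SD of 4 muscles. The groups are apart for *Dmd*, *Sgcd* and, by a small gap, *Utrn*, and overlap for the other 5 genes.

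*Dmd* (ENSMUSG00000045103, chrX:82948870-85206141, plus strand) had normalized counts of 6914, 8155, 6579 and 6169 in WT replicates 1 to 4. In *mdx5cv* replicates 1 to 4 the values were 4400, 4056, 3941 and 3461. Every *mdx5cv* muscle lay below every WT muscle, and the highest *mdx5cv* value was well under the lowest WT value. The mean went from 6954 ± 857 to 3964 ± 388, a log2 fold change of -0.81 (SE 0.12, 95% interval -1.06 to -0.55, adjusted p = 0.000177). This is 0.570 of the WT mean. The fall was -0.45 on the log2 scale under equal totals (adjusted p = 0.00405), so its size but not its direction depended on the scaling. In whole muscle, fewer cells of a type and less RNA per cell cannot be told apart. The gene had 14 annotated transcripts, 3 of them protein coding, and its counts join the full-length dystrophin of muscle with the shorter products of later starts.

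*Utrn* (ENSMUSG00000019820, chr10:12382188-12869365, minus strand), the paralog that can stand in for dystrophin, had 1394, 1182, 1267 and 1445 normalized counts in WT replicates 1 to 4. The *mdx5cv* values were 1484, 1553, 1478 and 1816. The *mdx5cv* values all exceeded the WT values, by a narrow margin between *mdx5cv* replicate 3 and WT replicate 4. The mean was 1322 ± 119 in WT and 1583 ± 159 in *mdx5cv*, a log2 difference of 0.26 (SE 0.11, 95% interval 0.03 to 0.49, adjusted p = 0.0668), which did not pass the test. The largest fold inside this interval was 1.40. The call was made without WT replicate 4 (0.30, adjusted p = 0.0489) and under equal totals (0.62, adjusted p = 0.00282), while without *mdx5cv* replicate 4 the difference was 0.19 (adjusted p = 0.149).

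Within each muscle, the ratio of *Utrn* to *Dmd* counts does not depend on the size factor. It was 0.202, 0.145, 0.193 and 0.234 in WT replicates 1 to 4 and 0.337, 0.383, 0.375 and 0.525 in *mdx5cv* replicates 1 to 4. The ratio was higher in 4 of 4 *mdx5cv* muscles than in any WT muscle, with a log2 difference of 1.07, which is 2.09-fold. The exact permutation test, two-sided, gave p = 0.0286, the smallest that 4 against 4 muscles allow, and 0.0571 after adjustment over the 4 ratios tested, which is above 0.05. The *Dmd* part of this ratio was itself the gene with the larger change, -0.81 against 0.26 on the log2 scale. Without *mdx5cv* replicate 4, which had the highest ratio, the log2 difference was 0.94.

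*Dag1* (ENSMUSG00000039952, chr9:108204634-108263958, minus strand), the precursor of both dystroglycans, had 2642, 2729, 2943 and 3104 normalized counts in WT and 3443, 2991, 3315 and 3577 in *mdx5cv*. In *mdx5cv*, 3 of 4 muscles were above all WT muscles and replicate 2 was within the WT range. The log2 difference was 0.22 (SE 0.10, 95% interval 0.0045 to 0.44, adjusted p = 0.0955) and did not pass the test, except under equal totals (0.58, adjusted p = 0.00344).

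Among the sarcoglycans, *Sgcd* (ENSMUSG00000020354, chr11:46896253-47988969, minus strand) was the only member that fell. Its normalized counts were 1002, 1083, 967 and 885 in WT and 609, 695, 654 and 524 in *mdx5cv*. Each *mdx5cv* muscle was below each WT muscle. The mean went from 984 ± 82.1 to 620 ± 73.3, a log2 fold change of -0.67 (SE 0.11, 95% interval -0.91 to -0.43, adjusted p = 0.000433), or 0.631 of WT. Under equal totals the fall was -0.31 (adjusted p = 0.0221).

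*Sgcb* (ENSMUSG00000029156, chr5:73632749-73647790, minus strand), the other core subunit, had 806, 591, 747 and 964 normalized counts in WT and 888, 891, 814 and 762 in *mdx5cv*. All *mdx5cv* values lay inside the WT range. The log2 difference was 0.13 (SE 0.14, 95% interval -0.16 to 0.42, adjusted p = 0.476). The interval of *Sgcb* did not overlap that of *Sgcd*, though the difference between both genes was not itself tested. Under equal totals *Sgcb* was called higher (0.49, adjusted p = 0.0188), and without WT replicate 2, its lowest value, the difference was 0.0042.

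*Sgca* (ENSMUSG00000001508, chr11:94962791-94976327, minus strand), the subunit made mainly in striated muscle, varied least, relative to its mean, of the 8 genes in WT, with 1397, 1427, 1326 and 1345 normalized counts. The *mdx5cv* values were 1222, 1336, 1242 and 1096. Below all WT muscles were 3 of 4 *mdx5cv* muscles, and replicate 2 was within the WT range. The log2 difference was -0.17 (SE 0.09, 95% interval -0.37 to 0.03, adjusted p = 0.170), not past the threshold, and its sign turned under equal totals (0.19, adjusted p = 0.124).

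*Sgce* (ENSMUSG00000004631, chr6:4674350-4747207, minus strand), the broadly expressed paralog of *Sgca*, was the least abundant of the 8 genes and was read by 46 to 96 reads per muscle. Its normalized counts were 52.7, 92.1, 55.3 and 58.3 in WT and 64.9, 58.5, 65.7 and 76.7 in *mdx5cv*. WT replicate 2 was higher than all other muscles of either group. The log2 difference was 0.07 (SE 0.19, 95% interval -0.34 to 0.49, adjusted p = 0.796), and the interval reached up to a 1.40-fold higher level, which this depth and spread could not tell from no change. Without WT replicate 1 the sign turned (-0.01), and without WT replicate 2 the difference was 0.25 (adjusted p = 0.237). Under equal totals the difference was 0.42 (adjusted p = 0.128).

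*Sspn* (ENSMUSG00000030255, chr6:145931641-145965223, plus strand) had 681, 476, 789 and 762 normalized counts in WT and 757, 876, 840 and 705 in *mdx5cv*. WT replicate 2 was the lowest and 2 of 4 *mdx5cv* muscles were above all WT muscles. The log2 difference was 0.25 (SE 0.15, 95% interval -0.07 to 0.57, adjusted p = 0.196). Under equal totals it was called higher (0.61, adjusted p = 0.00673), and without WT replicate 2 the difference was 0.09 (adjusted p = 0.518). An antisense gene, *Sspnos*, read at a mean of 0.0999 normalized counts, has a span that touches exons of *Sspn*.

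**Figure D2:**
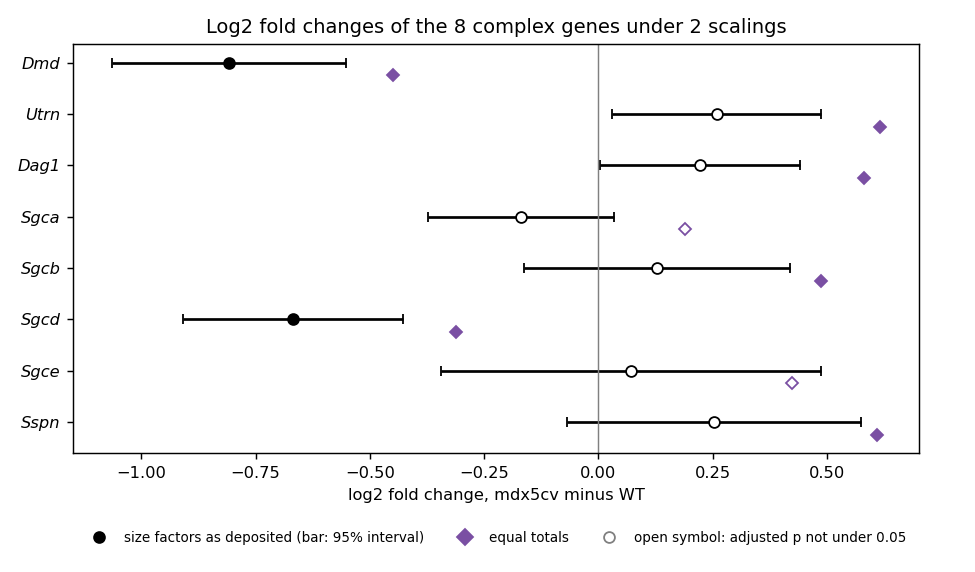
Log2 fold change (x axis, mdx5cv minus WT) of the 8 genes, with circles and 95% intervals for the size factors as deposited and diamonds for equal totals; filled symbols have an adjusted p under 0.05. *Dmd* and *Sgcd* are below 0 under both scalings, *Sgca* changes side, and *Utrn*, *Dag1*, *Sgcb* and *Sspn* are called under equal totals alone.

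Several libraries often stood at the edge of their group. Each gene has a highest and a lowest among 4 muscles, so every library can hold many such places. *mdx5cv* replicate 4 had the lowest *Dmd*, *Sgca* and *Sgcd* and the highest *Utrn*, *Dag1* and *Sgce* of its group, and *Sgcb* and *Sspn* were also lowest there. It also had the highest summed counts of the regenerating fiber markers (9398, against 2514 to 5317 in the other *mdx5cv* muscles) and of the macrophage markers (9233, against 3872 to 5307), and the lowest of the fast fiber markers (618631, against 893788 to 991738). WT replicate 2 had the highest *Dmd*, *Sgca*, *Sgcd* and *Sgce* and the lowest *Utrn*, *Sgcb* and *Sspn* of its group. *mdx5cv* replicate 2 had the highest *Sgca*, *Sgcb*, *Sgcd* and *Sspn* and the lowest *Dag1* and *Sgce* of its group. WT replicate 4 had the highest *Utrn*, *Dag1* and *Sgcb* and the lowest *Dmd* and *Sgcd* of its group. The fall of *Dmd* was -0.74 without *mdx5cv* replicate 4 (adjusted p = 0.000307) and -0.73 without WT replicate 2 (adjusted p = 0.000378). That of *Sgcd* was -0.59 (adjusted p = 0.000913) and -0.62 (adjusted p = 0.00113).

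Levels of different genes were compared per 1000 bases of exon, counting each exonic base of a gene once. In WT the order of the means was *Sgca* (792 ± 26.8), *Dag1* (449 ± 32.9), *Dmd* (292 ± 36.0), *Sgcb* (192 ± 38.0), *Sspn* (136 ± 28.4), *Sgcd* (119 ± 9.94), *Utrn* (77.3 ± 6.97) and *Sgce* (6.09 ± 1.74) normalized counts per 1000 bases. The transcript of the muscle sarcoglycan was thus the most abundant by length and that of its broadly expressed paralog the least. The ranges of *Sgcb* and *Sspn*, and of *Sspn* and *Sgcd*, overlapped, and those of the other neighbors did not.

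In *mdx5cv* the order was *Sgca* (705 ± 56.8), *Dag1* (524 ± 39.4), *Sgcb* (207 ± 15.4), *Dmd* (167 ± 16.3), *Sspn* (159 ± 15.6), *Utrn* (92.5 ± 9.32), *Sgcd* (75.1 ± 8.87) and *Sgce* (6.26 ± 0.713). *Dmd* stood below *Sgcb* and *Sgcd* below *Utrn* in 4 of 4 muscles, where in WT both stood above in 4 of 4. The ranges of *Dmd* and *Sspn* overlapped and those of the other neighbors did not. With the length of the longest transcript in place of all exons, both changes of order were absent: *Dmd* was above *Sgcb* in 4 of 4 *mdx5cv* muscles (266 ± 26.0 and 221 ± 16.4), with overlapping ranges, and *Sgcd* was above *Utrn* in 3 of 4 (139 ± 16.5 and 128 ± 12.9). These places in the order thus rest on the length assigned to each gene, and *Sgca*, *Dag1* and *Sgce* kept theirs by their means. On the longest transcripts *Dag1* was above *Dmd* in 3 of 4 WT muscles, with overlapping ranges.

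**Figure D3:**
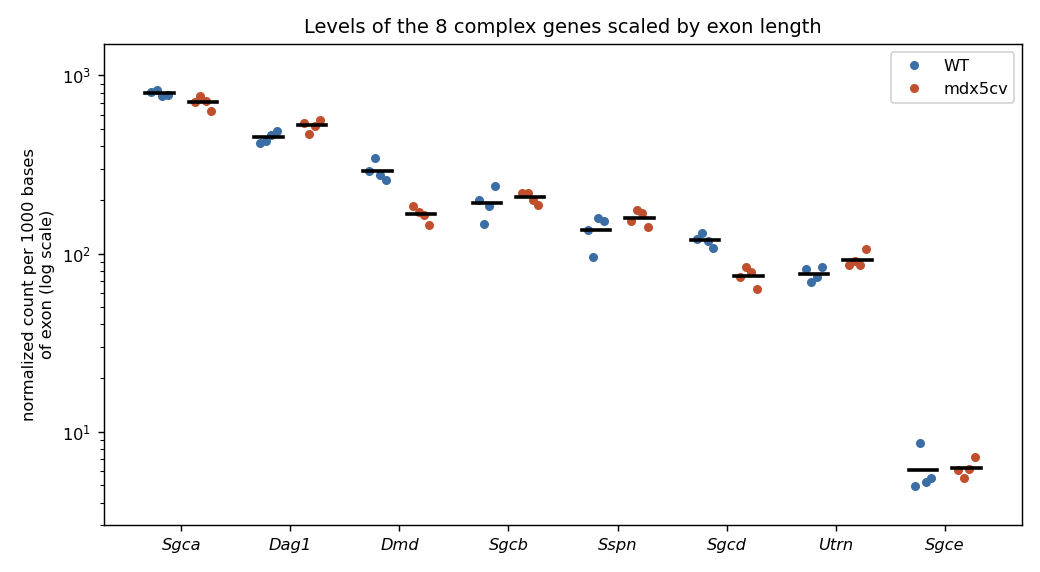
Normalized count per 1000 exonic bases (y axis, log scale) of the 8 genes in order of their WT mean, with a point per TA muscle and a bar at the mean of 4. *Sgca* is at the top and *Sgce* at the bottom in both groups, and *Dmd* and *Sgcd* are lower in every mdx5cv muscle.

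Fiber transcripts of the same muscle served as a second scale. The fast fiber markers held 0 genes called higher, 4 called lower (*Actn3*, *Tnnt3*, *Tnni2* and *Ckm*) and 4 not called of 8. Over all genes tested, 20.1% were called lower. The median log2 difference of these markers was -0.39, and -0.03 with 2 called lower under equal totals. The call of *Tnnt3* was lost without WT replicate 1, 3 or 4 or *mdx5cv* replicate 1 (adjusted p 0.0503 to 0.0732), and that of *Ckm* without WT replicate 2 or 3 or *mdx5cv* replicate 1 (adjusted p 0.0517 to 0.0653). Set against the mean log2 value of these 8 markers, *Dmd* was -3.79, -3.46, -3.90 and -3.94 in WT replicates 1 to 4 and -4.04, -4.38, -4.40 and -3.95 in *mdx5cv* replicates 1 to 4. *mdx5cv* replicate 4 was just under WT replicate 4, and the groups did not overlap. The log2 difference was -0.42, smaller in size than that of *Dmd* alone, with an exact permutation p of 0.0286 (0.0571 adjusted over the 4 ratios). *Sgca* on the same scale was 0.22 higher in *mdx5cv* (exact permutation p = 0.0857, adjusted 0.114), with 2 of 4 muscles above all WT muscles. Without *mdx5cv* replicate 4 this difference was 0.12. The ratio of *Sgce* to *Sgca* differed by 0.24 on the log2 scale (exact permutation p = 0.286, also after adjustment), with overlapping groups.

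**Figure D4:**
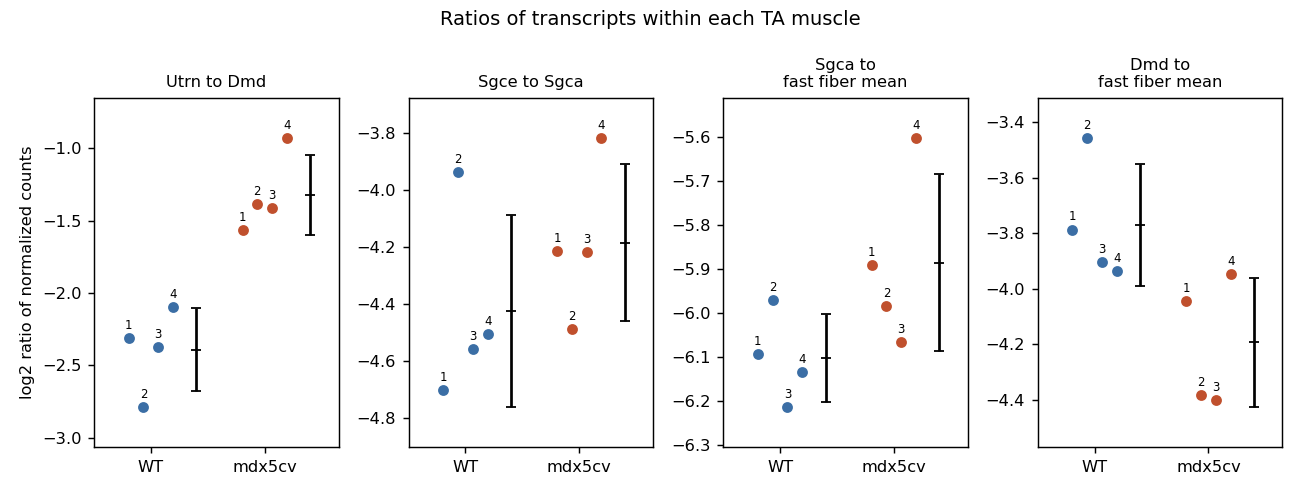
Log2 ratios of normalized counts within each TA muscle (y axis, its own range in each panel), with replicate numbers above the points and the mean ± SD of 4 muscles in black. *Utrn* to *Dmd* is higher in all 4 mdx5cv muscles and *Dmd* to the fast fiber mean is lower in all 4, while the groups overlap in both other panels.

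Markers of other cells of the muscle moved with the groups, where 20.9% of all genes tested were called higher. Of the regenerating fiber markers 6 of 6 were called higher, and their summed normalized count was 198 to 229 in WT and 2514 to 9398 in *mdx5cv*, led over both groups by the embryonic myosin *Myh3* (39.8 ± 7.43 and 3101 ± 2096). Of the macrophage markers 7 of 8 were called higher and *Cd163* lower, with sums of 582 to 896 and 3872 to 9233, led by *Lyz2* (243 ± 49.0 and 3285 ± 1416). Of the fibroblast markers 5 of 6 were called higher, with sums of 5365 to 8125 and 17679 to 31691. *Col3a1* was the most abundant over both groups (1485 ± 402 and 12658 ± 3557), while *Dcn*, which was not called, led in WT (3090 ± 1200 and 2488 ± 358). Of the satellite cell markers 4 of 5 were tested, and *Pax7* and *Vcam1* were called higher, with sums of 151 to 210 and 267 to 381. *Vcam1* was the most abundant of them over both groups, at 42.8 ± 11.0 and 130 ± 40.1, though *Chodl* was above it in WT (76.6 ± 14.7 and 75.8 ± 12.7). Under equal totals the number called higher was 6 for the regenerating fiber, 7 for the macrophage, 5 for the fibroblast and 3 for the satellite cell markers.

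Markers of vessels, nerve and fat were mostly lower in *mdx5cv*, where 20.1% of all genes tested were called lower. Of the endothelial markers 5 of 6 were called lower and 0 higher, with sums of 2570 to 3139 in WT and 1616 to 2084 in *mdx5cv*, led by *Cdh5* (825 ± 53.9 and 544 ± 90.7). Of the smooth muscle and pericyte markers 4 of 7 were called lower (*Myh11*, *Tagln*, *Rgs5* and *Kcnj8*) and 3 higher (*Acta2*, *Pdgfrb* and *Cspg4*), with sums of 6367 to 7709 and 4590 to 5278, led by *Rgs5* (4696 ± 708 and 2565 ± 334). Of the Schwann cell markers 3 of 4 were called lower, with sums of 266 to 542 and 122 to 220, led over both groups by *Mbp* (150 ± 49.0 and 81.1 ± 25.1). Of the adipocyte markers 3 of 4 were called lower (*Adipoq*, *Cidec* and *Lep*), with sums of 58.4 to 464 and 14.8 to 51.9, led by *Plin1* (60.2 ± 72.0 and 16.4 ± 7.57). The adipocyte sum of 464 was that of WT replicate 4, and the next highest WT sum was 168, in replicate 2. The call of *Adipoq* was lost without WT replicate 2 or 4 or *mdx5cv* replicate 1 (adjusted p 0.0837 to 0.0890). Under equal totals the number called lower was 1 for the endothelial, 4 for the smooth muscle and pericyte, 1 for the Schwann cell and 2 for the adipocyte markers. No marker was at 0 in all 8 muscles. *Utrn*, *Dag1* and *Sgce* are made in several of these cell types as well as in fibers. The part of these lists in the values of the 8 genes was not tested.

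The cytoplasmic partners of dystrophin, the syntrophins, dystrobrevins and neuronal nitric oxide synthase, moved in both directions. Of 8 genes 6 were tested, 2 were called higher, 2 lower and 2 not called, where 40.9% of all genes tested were called. The list had a median log2 difference of 0.00. *Sntb1* (β1-syntrophin) rose from 90.6 ± 33.0 to 191 ± 67.3 normalized counts (log2 fold change 1.08, SE 0.28, adjusted p = 0.00762). *Nos1*, which is held at the sarcolemma through dystrophin, fell from 2273 ± 477 to 1417 ± 251 (-0.68, SE 0.16, adjusted p = 0.00418), a call that was lost under equal totals (-0.32, adjusted p = 0.102). *Sntb2* was called higher (0.38), a call that was lost without WT replicate 1 or 3 or *mdx5cv* replicate 2 or 4 (adjusted p 0.0544 to 0.0863). The count called lower was 1 without WT replicate 3 or 4 or *mdx5cv* replicate 4. Under equal totals 3 were called higher and 0 lower.

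The matrix ligands of dystroglycan, together with laminin subunits and collagen VI, moved mostly upward. Of 13 genes 10 were called higher, 1 lower and 2 not called, where 20.9% of all genes tested were called higher. The list had a median log2 difference of 0.72 (1.07 under equal totals). *Col6a3*, *Col6a2* and *Col6a1*, the chains of collagen VI, rose by log2 fold changes of 2.22, 1.97 and 1.71, and *Bgn*, the proteoglycan biglycan, by 2.20. *Lama2*, the laminin chain of the adult muscle basement membrane and the main ligand of α-dystroglycan, rose from 1010 ± 144 to 1648 ± 88.9 (0.72, SE 0.11, adjusted p = 0.000255). *Lama5* was called lower (-0.27, adjusted p = 0.0277), a call that was lost without WT replicate 1 or 4 or *mdx5cv* replicate 1 or 3 (adjusted p 0.0563 to 0.0742) and whose sign turned under equal totals (0.08). The fibroblast marker sums, given above, moved with this group, and their part in it was not tested.

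Among the enzymes that build the laminin-binding glycan on α-dystroglycan, *Rxylt1* changed most. Of 17 genes 16 were tested, 1 was called higher, 3 lower and 12 not called, where 40.9% of all genes tested were called, with a median log2 difference of -0.01. *Rxylt1*, a xylosyltransferase, fell from 233 ± 22.5 to 117 ± 10.3 (-0.99, SE 0.12, adjusted p = 4.94e-05), and by -0.63 under equal totals (adjusted p = 0.00387). *B3galnt2* fell from 1155 ± 58.0 to 744 ± 111 (-0.64, SE 0.12, adjusted p = 0.00072), a call that was lost under equal totals (-0.29, adjusted p = 0.0746). *Gmppb* was called higher (0.58), but not without WT replicate 1 or *mdx5cv* replicate 1, 2 or 4 (adjusted p 0.0589 to 0.0861). Under equal totals the counts were 6 higher and 1 lower, with a median of 0.34.

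The membrane cytoskeleton and costamere partners included the other route by which fibers hold to laminin. Of 21 genes 20 were tested, 8 were called higher, 1 lower and 11 not called, where 40.9% of all genes tested were called. The list had a median log2 difference of 0.12 (0.48 under equal totals, with 15 higher and 0 lower). *Actb*, cytoplasmic β-actin, rose from 3233 ± 361 to 7883 ± 2436 (1.25, SE 0.17, adjusted p = 0.00012). *Itga7* and *Itgb1*, the laminin-binding α7β1 integrin of muscle, rose by 0.65 (adjusted p = 0.00094) and 0.60 (adjusted p = 0.00122). The macrophage and fibroblast marker sums, given above, also rose in these whole muscles, and their part in the values of this list was not tested. *Synm*, the intermediate filament protein synemin, fell by 0.46 on the log2 scale (adjusted p = 0.0257), a call that was lost without WT replicate 1, 3 or 4 (adjusted p 0.0515 to 0.0728) and under equal totals (-0.10, adjusted p = 0.534).

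Among factors known to act on the utrophin promoter, *Ets2* changed most. Of 11 genes 1 was called higher, 2 lower and 8 not called, where 40.9% of all genes tested were called, with a median log2 difference of 0.06 (0.42 under equal totals, with 5 higher and 1 lower). *Ets2*, an ETS factor, fell from 582 ± 37.9 to 363 ± 17.0 (-0.68, SE 0.10, adjusted p = 0.000143), and *Esrra*, a nuclear receptor of oxidative metabolism, was called lower (-0.52, adjusted p = 0.0135), but not under equal totals (-0.17, adjusted p = 0.314). The fall of *Ets2* was -0.32 under equal totals (adjusted p = 0.0424). *Gabpb2*, a subunit of GABP, was called higher (0.35, adjusted p = 0.0460), but not without WT replicate 2 or 3 or *mdx5cv* replicate 1, 2 or 4 (adjusted p 0.0663 to 0.130). *Gabpa*, which binds the N box, differed by -0.17 (adjusted p = 0.235), and its sign turned under equal totals (0.19, adjusted p = 0.233).

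Of 11 genes of the neuromuscular junction, where utrophin of healthy fibers is found, 7 were called higher, 0 lower and 4 not called. Over all genes tested, 20.9% were called higher. The list had a median log2 difference of 0.69 (1.05 under equal totals), in RNA of whole muscle and not of the junction. *Dok7* was called higher (0.40, adjusted p = 0.0276), but not without WT replicate 1 or 2 or *mdx5cv* replicate 1 or 4 (adjusted p 0.0528 to 0.0906). *Chrna1* rose from 100 ± 37.3 to 743 ± 381 (2.85, SE 0.33, adjusted p = 2.81e-05). *Chrnd* rose from 20.9 ± 3.87 to 88.5 ± 34.9, and *Ache*, acetylcholinesterase, from 286 ± 70.9 to 849 ± 86.9. *Chrng*, the fetal receptor subunit, was read once over all WT muscles and had 115 ± 81.1 normalized counts in *mdx5cv* (adjusted p = 1.23e-06). The adult subunit *Chrne* differed by 0.40 (adjusted p = 0.0649), and *Musk* by -0.01. Under equal totals *Chrne* was called higher (0.75, adjusted p = 0.00898) and *Musk* turned to 0.35 (adjusted p = 0.198). *Chrng* is also in the regenerating fiber list, whose sums moved with the groups, and its part in these values was not tested.

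**Figure D5:**
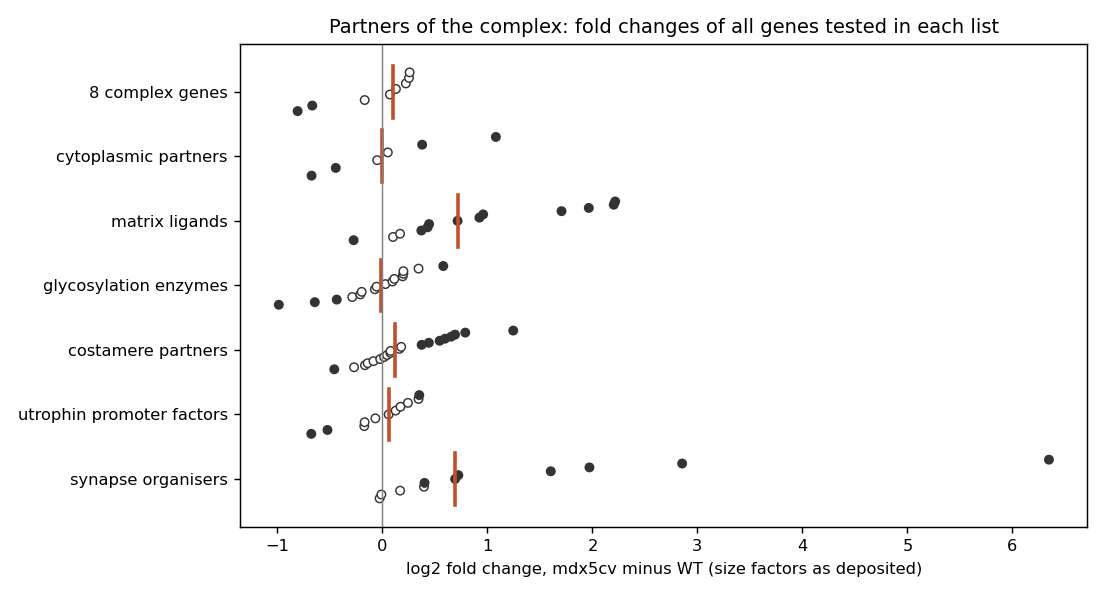
Log2 fold change (x axis, mdx5cv minus WT) of each gene tested in the complex and in 6 lists of partners, with a point per gene, filled where the adjusted p is under 0.05, and a bar at the median of the list. Medians range from -0.01 for the glycosylation enzymes to 0.72 for the matrix ligands, and the 8 complex genes have a median of 0.10.

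The genes with the pattern most like each of 4 members were found among 7641 genes that averaged 100 or more normalized counts, by the smallest root mean square difference over the 8 muscles of the log2 deviation from the WT mean. For *Dmd* they were *Asb5* (0.06), *Prkar2a* (0.06) and *Ppm1a* (0.07), whose log2 fold changes were -0.85, -0.83 and -0.80. For *Utrn* they were *Tanc2*, *Sike1* and *Usp8* (0.04 to 0.06), with log2 differences of 0.25, 0.27 and 0.27. For *Sgca* they were *Gpd1l*, *Trim16* and *Utp6* (0.05 each), with differences of -0.16, -0.16 and -0.21. For *Sgce* they were *Rsbn1l*, *Gm24407* and *Psme2* (0.08 to 0.09), with differences of 0.04, 0.14 and 0.05. No other member was among these genes, but only the 3 likest of 7641 were kept for each. *Sgce* averaged under 100 normalized counts and could not have been named for another member.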

How the data were processed

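RNA-seq libraries of 4 WT and 4 *mdx5cv* TA muscles were used, with groups taken from the sample titles. Libraries were made from total RNA with a reversely stranded kit. The submitters' processing notes name Trim Galore 0.6.4, STAR 2.6.0c, SAMtools 1.9, featureCounts, DESeq2 1.26.0 in R 3.6.2 and the mm10 genome; the annotation release and the strand setting of the counting are not given in the sources used here. The deposited values are a signal for each gene: reads that the authors had scaled by 1 size factor per library. Multiplied back, 100% of the values were whole reads. Replicates differed by more than sampling noise (chi-square 8.59 to 38.4 per degree of freedom), so each library was kept as its own sample.

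The log2(normalized count + 1) values of genes averaging 10 or more were tested in limma 3.58.1 (R 4.3.3), with a variance trend, two-sided, without covariates, so fold changes understate those of low genes. Alternatives were edgeR 4.0.16 and DESeq2 1.42.0 on recovered reads, pseudocounts of 0.1 and 10, no filter or a minimum of 10 in each library, equal totals or TMM factors for scaling, no variance trend, a replicate block, leaving out each replicate, and the longest transcript for levels per length. Ratios were compared by exact permutation over 70 regroupings. Scripts were tested on simulated data. Lengths and coordinates are of GENCODE M21 (GRCm38), and promoters of RefSeq, which matched 7 of the 8 genes.

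The members and lists were chosen with earlier results of these data known. Named genes are the 8 members; in each list those with an adjusted p under 0.05 that changed by 1 or more in log2 (at most 4) and the largest in the other direction; the 3 genes of likest pattern; and the most abundant marker of each cell type. *Lama2*, *Itga7*, *Itgb1*, *Sntb2*, *Gabpa*, *Esrra*, *Ets2*, *Gabpb2*, *Chrne*, *Musk*, *Dok7*, *Chodl*, *Dcn*, *Rxylt1*, *B3galnt2*, *Gmppb*, *Sspnos* and the other called markers were named after their values were seen. Some genes of these lists are counted but not reported here by name.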

Additional observations from a re-analysis of the deposited data

Results flagged for a closer look

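*Sgce* in WT muscle had 1 replicate far from the others. WT replicate 2 had 92.1 normalized counts, and the other 3 WT muscles had 52.7 to 58.3. The gap to the nearest muscle was 0.859 of the range of the group, above the 95% critical value of Dixon for 4 samples, and on the log2 scale it was 0.821, below it. The summed normalized count of the satellite cell markers was 381 in *mdx5cv* replicate 4 and 267 to 285 in the other 3 *mdx5cv* muscles. Its gap was 0.842 of the range, and 0.816 on the log2 scale. Of 42 sets of 4 muscles examined, 2 held such a value, and chance flags about 1 in 20.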

How the results depend on the processing

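*Dmd* and *Sgcd* were called lower under all 18 alternatives, with log2 fold changes of -0.86 to -0.45 and -0.73 to -0.31. Equal totals changed the call of 4 other members: *Utrn* (0.62), *Dag1* (0.58), *Sgcb* (0.49) and *Sspn* (0.61) were called higher. This made 4 members called higher in place of 0, and *Sgca* turned to 0.19. Of the 13677 genes tested, 5444 were then called higher and 820 lower, against 2854 and 2743. Leaving out 1 replicate gave 0.19 to 0.30 for *Utrn*, 0 to 1 member called higher, and -0.013 to 0.25 for *Sgce*, which turned sign without WT replicate 1 (-0.013); the cause was not tested. The 4 ratios kept their direction under every alternative run; their leave-one-out values were not tested. With the replicate number as a block, *Dmd* was -0.81 (adjusted p = 0.000165), *Sgcd* -0.67 (0.00029) and *Utrn* 0.26 (0.0545), and the block changed no call of the 8 genes. Same-numbered samples deviated together only weakly (r 0.03 to 0.15), and 2 of 4 WT and 3 of 4 *mdx5cv* samples correlated best with their own number. The titles give only the number, and whether same-numbered samples also share a preparation was not tested. Depth limits *Sgce*, with 46 to 96 reads per muscle.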
